A study of Mus musculus with 6 samples.

Results

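This account concerns 10 genes of the basement membrane, taken by their symbols from the 33696 features of the deposited tables: the type IV collagen chains Col4a1, Col4a2, Col4a3, Col4a4 and Col4a5, the laminin chains Lamb1, Lamb2 and Lamc1, nidogen 1 (Nid1) and perlecan (Hspg2). All 10 were found, and 51 further genes for basement membrane chains, assembly enzymes and receptors are summarised beside them. Kidneys of male C57BL/6 mice, bought at an age of 8 to 10 weeks, were dissociated after the treatment, and single cells were sequenced by the 10x Genomics 3′ method, with 1 library from each of 3 Sham and 3 DOCA-salt mice. The DOCA-salt mice had lost the left kidney, then carried a 50 mg pellet of deoxycorticosterone acetate (DOCA), a mineralocorticoid, and drank water with 1% NaCl for 21 days. The Sham mice had sham surgery, no pellet and normal water, so nephrectomy and DOCA-salt cannot be told apart. The sources used here name no engineered allele in these mice.

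A basement membrane is the thin sheet of matrix on which epithelial and endothelial cells rest. Laminin trimers and a network of collagen IV trimers form it, and nidogen and perlecan link the networks. The Col4a1 and Col4a2 chains make the collagen IV trimer found in nearly all basement membranes, whereas Col4a3, Col4a4 and Col4a5 make a trimer of the mature glomerular and some tubular basement membranes, and loss of any of these last chains causes Alport syndrome in people. In the kidney the sheet surrounds tubules and capillaries and forms the core of the glomerular filter.

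The collagen IV genes lie in head-to-head pairs. In the GRCm39 build with the GENCODE annotation, Col4a1 (ENSMUSG00000031502, chr8:11248423-11362826, minus strand) and Col4a2 (ENSMUSG00000031503, chr8:11362471-11499287, plus strand) have canonical transcripts that start at 11362826 and 11362509, so that they overlap by 318 bases. Col4a4 (ENSMUSG00000067158, chr1:82426144-82564800, minus strand) and Col4a3 (ENSMUSG00000079465, chr1:82564642-82699780, plus strand) have canonical starts at 82564800 and 82564697, an overlap of 104 bases. Col4a5 (ENSMUSG00000031274, chrX:140258354-140472231, plus strand) starts 1281 bases from Col4a6, which was counted among the further chains. Of each overlap 30 bases, read on the plus strand, are shown because the members of each pair share them. They are the bases around the first CCAAT of the Col4a1 and Col4a2 overlap (chr8:11362761-11362790) and the middle of the Col4a4 and Col4a3 overlap (chr1:82564735-82564764), which holds no CCAAT on either strand. Capitals mark those letters.
Col4a1 and Col4a2: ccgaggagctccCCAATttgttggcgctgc
Col4a4 and Col4a3: acctgcctgctctgcgggcgcccaaccttt

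Lamc1 (ENSMUSG00000026478, chr1:153094597-153208774, minus strand), Nid1 (ENSMUSG00000005397, chr13:13612071-13686860, plus strand) and Hspg2 (ENSMUSG00000028763, chr4:137196079-137298231, plus strand) were higher in DOCA-salt kidneys together with Col4a1 and Col4a2, and the 250 bases before their starts are shown for that reason, each on its gene's strand. The windows are chr1:153208775-153209024, chr13:13611821-13612070 and chr4:137195829-137196078. Capitals mark the GC box letters GGGCGG on either strand. The letters CCAAT and TATAAA were searched likewise and stood in none of these windows. The GC box stood 3 times in the window of Lamc1, 5 times in that of Hspg2 and 0 times in that of Nid1, and no match overlapped another. Over the same window of 21757 protein-coding genes, 29.9% held the GC box, 36.1% CCAAT and 12.5% TATAAA.
Lamc1: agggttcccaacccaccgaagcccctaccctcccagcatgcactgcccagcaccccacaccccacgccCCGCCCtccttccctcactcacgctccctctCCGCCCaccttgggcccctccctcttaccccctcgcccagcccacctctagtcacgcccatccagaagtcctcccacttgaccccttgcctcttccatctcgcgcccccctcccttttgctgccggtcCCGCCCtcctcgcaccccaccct
Nid1: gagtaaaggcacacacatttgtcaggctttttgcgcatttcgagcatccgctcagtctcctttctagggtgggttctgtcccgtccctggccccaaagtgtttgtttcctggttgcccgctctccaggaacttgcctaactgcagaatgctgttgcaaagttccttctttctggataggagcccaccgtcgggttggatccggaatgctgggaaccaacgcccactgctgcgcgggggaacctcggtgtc
Hspg2: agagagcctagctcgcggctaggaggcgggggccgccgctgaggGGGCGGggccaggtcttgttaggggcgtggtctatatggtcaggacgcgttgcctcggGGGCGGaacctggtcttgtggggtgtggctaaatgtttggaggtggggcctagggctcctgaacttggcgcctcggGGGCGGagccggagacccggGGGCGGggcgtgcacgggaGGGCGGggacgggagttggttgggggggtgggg

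Lamb1 (ENSMUSG00000002900, chr12:31315030-31379658) and Lamb2 (ENSMUSG00000052911, chr9:108356935-108367729) lie on plus strands, and an exon of Gm61290 lies within the 250 bases before the start of Lamb1. The last exons, where reads of a 3′ method fall, overlap an exon of a gene on the other strand for Lamb1 (Dld), Col4a3 (C430014B12Rik) and Hspg2 (Ldlrad2). Whether the counting used strand is not given in the sources used here, so reads of these pairs may not be told apart.

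The libraries held 76774 barcodes and 93172739 to 137819127 unique molecular identifiers (UMIs, counts of captured RNA molecules) each. Filters kept 60561 barcodes, 4928 were removed as likely doublets, and 699 of 76068 barcode sequences occurred in 2 or more libraries. The 55633 cells were sorted into classes by marker genes, and a class name stands for cells that resemble that type by these markers. A cluster of 638 cells, 609 of them from DOCA-salt mouse 2, stayed unnamed. The 5 calls in whole kidneys were also 5 without it, beside 17.4% of all genes. Podocytes formed no class. UMIs were summed per mouse and class and are given as CPM (counts scaled to the same total in every sum), which compare a gene between groups and cell types but not 1 gene with another. Values per mouse stand in the order of mice 1, 2 and 3. Sums were compared with the quasi-likelihood F test of edgeR, with adjustment over all genes tested and a threshold of 0.05 (a gene past it is here "called"), and errors of log2 changes are standard errors (SE). The p-values measure the spread between these 3 mice and 3 mice.

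Summed over whole kidneys, 5 of the 10 genes rose in DOCA-salt mice and none fell, where 17.2% of all 19658 genes tested were called in either direction. Both chains of the widespread collagen IV trimer, both linkers and the laminin γ1 chain were higher. The chains of the Alport trimer and both laminin β chains did not pass. Over the 10 genes the median log2 change was 0.44, against -0.03 over all genes.

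Col4a1 was at 96.9, 103 and 99.8 CPM in the Sham mice and at 207, 289 and 283 CPM in the DOCA-salt mice. Col4a2 was at 57.9, 53.5 and 59.0 CPM in Sham mice and at 110, 162 and 163 CPM in DOCA-salt mice. Every DOCA-salt mouse lay above every Sham mouse for both chains. The log2 change was 1.25 ± 0.13 (SE, adjusted p = 0.000818) for Col4a1 and 1.23 ± 0.15 (adjusted p = 0.00146) for Col4a2. Nid1, which bridges laminin and collagen IV, stood at 6.09, 5.92 and 5.97 CPM in Sham mice and at 21.8, 39.8 and 38.7 CPM in DOCA-salt mice. Its log2 change of 2.35 ± 0.21 (adjusted p = 0.000482) was the largest among the 10 genes. Hspg2, the heparan sulfate proteoglycan perlecan, was at 19.4, 29.3 and 19.7 CPM against 48.3, 57.4 and 74.0 CPM, with a log2 change of 1.27 ± 0.19 (adjusted p = 0.00393). Lamc1, the γ chain of most laminin trimers, was at 25.0, 29.3 and 28.5 CPM against 36.7, 47.4 and 51.8 CPM, and rose by 0.59 ± 0.13 on the log2 scale (adjusted p = 0.0167). The groups did not overlap for any of these 5 genes. The call of Lamc1 was lost without Sham mouse 1, without DOCA-salt mouse 2 and without DOCA-salt mouse 3, with an adjusted p of at most 0.0703.

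**Figure D1:**
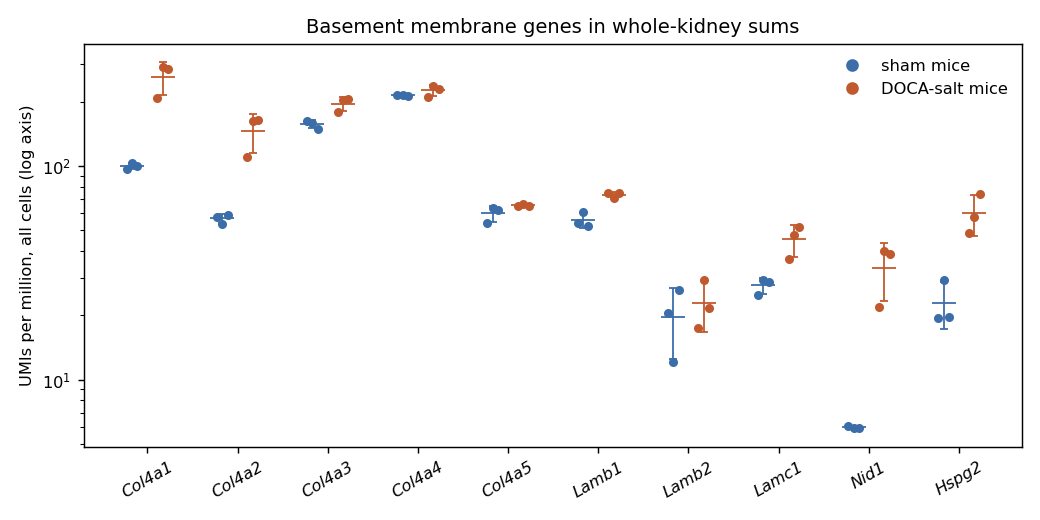
Level of each of the 10 genes in the whole-kidney sum of every mouse (CPM, log axis), with a point for each mouse and a dash with bars at the mean ± SD of 3 Sham (blue) and 3 DOCA-salt (orange) mice. The groups are apart for Col4a1, Col4a2, Nid1, Hspg2 and Lamc1, whereas Col4a4 and Lamb2 overlap.

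Among the remaining members, Lamb1, the β1 chain of many laminins, was at 54.2, 60.8 and 52.3 CPM in Sham and 74.4, 70.8 and 74.5 CPM in DOCA-salt mice. The groups were apart, but the change of 0.28 ± 0.09 did not pass (adjusted p = 0.0700). For Col4a3 the sums were 163, 159 and 149 CPM against 178, 204 and 205 CPM, with a log2 change of 0.20 ± 0.09 (adjusted p = 0.171). Col4a4, Col4a5 and Lamb2 changed by -0.04 ± 0.09, 0.01 ± 0.09 and 0.09 ± 0.28 on the log2 scale, none past the threshold. Lamb2 had the widest spread, from 12.2 to 26.3 CPM within Sham mice alone.

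In a whole-kidney sum, more cells of a type and more RNA per cell cannot be told apart. Fibroblasts were 0.137% of cells in Sham and 2.90% in DOCA-salt mice, endothelial cells 6.10% and 8.64%, and proximal tubule cells 62.1% and 51.8%. The summed level of 7 fibroblast markers was 9.63 to 49.1 CPM in Sham and 324 to 554 CPM in DOCA-salt mice, with 7 of 7 markers apart and none at 0. The 9 endothelial markers summed to 390 to 465 CPM and 613 to 877 CPM, with 7 of 9 apart and none at 0. With fibroblasts left out of the sums the same number of 5 genes passed, beside 12.7% of 19517 genes. The log2 change of Nid1 was then 1.73 (adjusted p = 0.00228), that of Col4a1 1.09 and that of Hspg2 1.25.

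The UMIs of the 10 genes came from different cells. Nid1 UMIs came from fibroblasts to 6.07% in Sham and 42.2% in DOCA-salt mice, and from endothelial cells to 42.2% and 36.6%. Hspg2 was mainly an endothelial gene in both groups, with 49.2% of its UMIs from endothelial cells in Sham and 56.5% in DOCA-salt mice. Col4a1 UMIs came to 35.0% from proximal tubule and 14.8% from endothelial cells in Sham mice, and to 21.1% and 26.0% in DOCA-salt mice, where fibroblasts gave 15.5% after 0.438%. Parietal-like cells gave 14.7% of them in Sham and 17.7% in DOCA-salt mice. Col4a3 was drawn from the proximal tubule to 64.9% in both groups, and Col4a4 to 46.4% and 44.8%. In DOCA-salt mouse 1 the order for Col4a1 was the other way round, with 29.2% from proximal tubule and 21.5% from endothelial cells. Lamb2 UMIs were to 36.3% and 36.4% endothelial.

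With each class's share of UMIs held at its Sham mean, the ratio of DOCA-salt to Sham means was 2.02 for Nid1 instead of the observed 5.58. The same step gave 1.70 instead of 2.60 for Col4a1, 1.68 instead of 2.55 for Col4a2 and 1.75 instead of 2.62 for Hspg2. For Lamc1 it was 1.22 instead of 1.64, and for Lamb2 0.854 instead of 1.16. The held ratio thus stayed above 1 for the 5 genes called in whole kidneys but was closer to it. For Col4a3 it was higher than observed, 1.47 against 1.25. These ratios are descriptions with no test. Endothelium was held as a whole, so shifts between arterial and capillary cells within it remain in them. Shifts within other classes remain too.

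**Figure D2:**
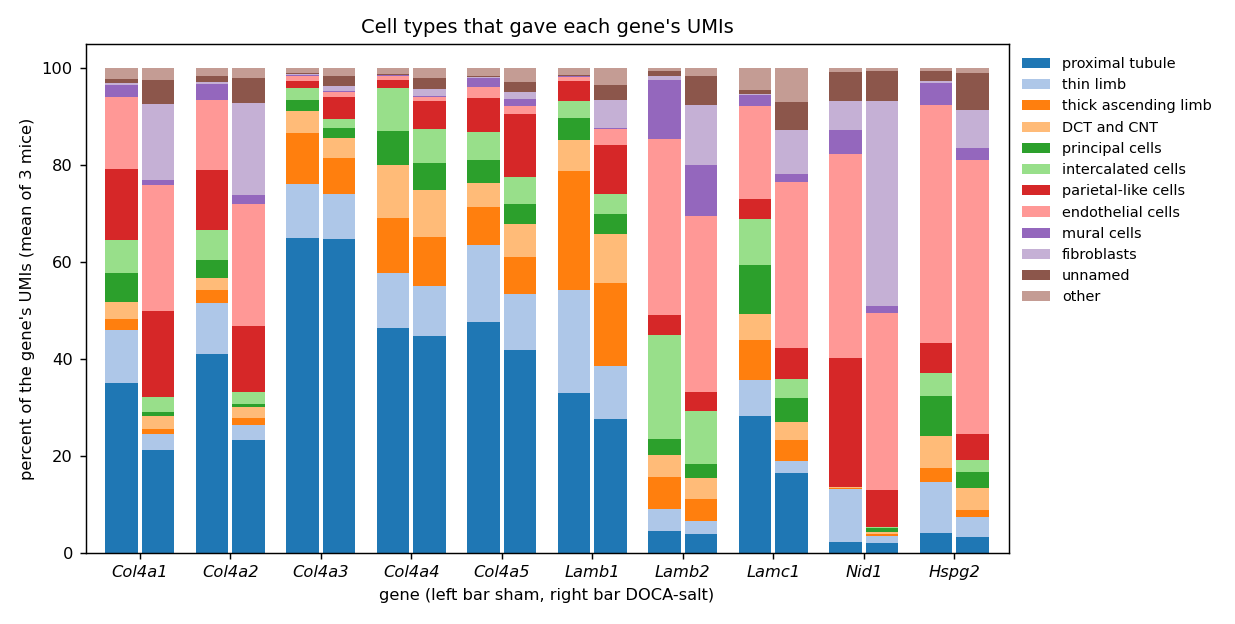
Percent of each gene's UMIs (vertical axis, mean of 3 mice) that came from each cell class (colours), with Sham in the left and DOCA-salt in the right bar of each gene; DCT and CNT are the distal convoluted and connecting tubule. The fibroblast share of Nid1 is 6.07% in Sham and 42.2% in DOCA-salt mice, while the proximal tubule share of Col4a3 is 64.9% in both.

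The level in each cell type set the 2 collagen IV trimers apart as well. In Sham mice Col4a1 was highest in parietal-like cells, a class named from parietal markers of which 24.2% in Sham and 77.1% in DOCA-salt mice fell to injured tubule at a finer clustering, at 881 ± 164 CPM (SD, n = 3), then in capillary endothelium at 565 ± 61.1 CPM, with no overlap between neighbours, and glomerular endothelium and mural cells followed with overlapping values. In DOCA-salt mice capillary endothelium led at 1404 ± 190 CPM, above fibroblasts at 1034 ± 153 CPM and parietal-like cells at 749 ± 59.6 CPM. Col4a2 had parietal-like cells (413 ± 52.0 CPM) and capillary endothelium (314 ± 83.9 CPM) in front in Sham mice, and capillary endothelium (746 ± 121 CPM) and fibroblasts (704 ± 107 CPM) in DOCA-salt mice, and neither pair of neighbours was apart.

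Col4a3 was highest in the thin limb in both groups, at 373 ± 61.3 and 585 ± 20.6 CPM, apart from the next class. Col4a4 was highest in distal convoluted and connecting tubule in Sham mice (616 ± 59.0 CPM), followed by thin limb (518 ± 12.1 CPM) and principal cells (477 ± 18.7 CPM). In DOCA-salt mice the thin limb came first for Col4a4 at 759 ± 56.7 CPM, and principal cells and distal tubule overlapped behind it. Col4a5 was led by parietal-like cells in Sham (245 ± 12.9 CPM) and by thin limb in DOCA-salt mice (251 ± 11.4 CPM). All 3 Alport chains thus stood high in thin limb cells.

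The laminin β chains divided the tissue. Lamb1 was highest in thin limb (256 ± 71.9 CPM in Sham, 265 ± 10.9 CPM in DOCA-salt mice) and thick ascending limb (191 ± 10.5 and 207 ± 14.7 CPM), and in arterial endothelium it was at 2.58 ± 0.396 and 5.26 ± 1.59 CPM. Lamb2, the β2 chain of glomerular and arterial laminins, was highest in mural cells (309 ± 87.3 and 343 ± 75.7 CPM) and arterial endothelium (188 ± 40.2 and 180 ± 32.6 CPM), classes that overlapped in Sham mice and were apart in DOCA-salt mice. In proximal tubule Lamb2 was at 1.48 ± 0.735 and 1.80 ± 0.591 CPM. Lamc1 was similar in capillary, glomerular and arterial endothelium of Sham mice, whose ranges overlapped between 97.0 and 153 CPM.

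Nid1 in DOCA-salt mice was highest in fibroblasts at 362 ± 45.7 CPM, apart from capillary endothelium at 241 ± 23.9 CPM. Sham fibroblasts were too few to be ranked for any gene, and their Nid1 values of 205, 643 and 313 CPM from 24, 6 and 9 cells lay above the Sham means of capillary endothelium (115 ± 24.0 CPM) and glomerular endothelium (112 ± 35.7 CPM), which overlapped. Hspg2 was highest in capillary endothelium in both groups, at 402 ± 143 and 671 ± 70.7 CPM, and the other endothelial classes followed.

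**Figure D3:**
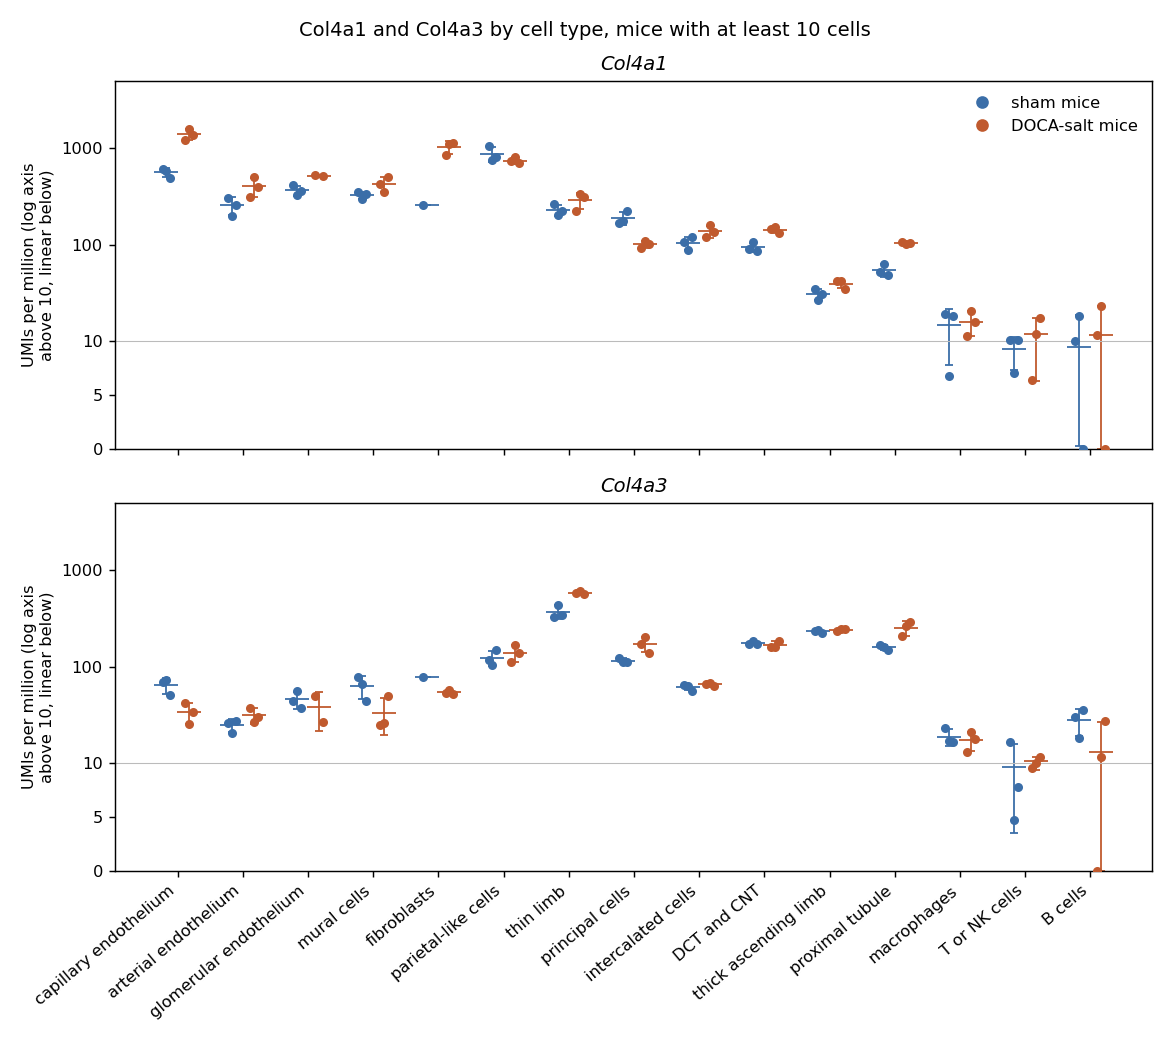
Level of Col4a1 (upper panel) and Col4a3 (lower panel) by cell class (CPM, on an axis that is logarithmic above 10 and linear below), with a point for each mouse with at least 10 cells of the class and a dash with bars at the mean ± SD of the Sham (blue) and DOCA-salt (orange) mice. Col4a1 stands highest in capillary endothelium, fibroblasts and parietal-like cells in DOCA-salt mice, and in parietal-like cells and capillary endothelium in Sham mice. Col4a3 stands highest in thin limb, at 373 CPM in Sham and 585 CPM in DOCA-salt mice.

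In endothelial cells 6 of the 10 genes passed the threshold and all 6 were higher in DOCA-salt mice, where 8.22% of 12536 genes were called. Col4a1 went from 387, 317 and 301 CPM to 846, 1225 and 1041 CPM, a log2 change of 1.64 ± 0.16 (adjusted p = 0.000403). Col4a2 was at 246, 152 and 168 CPM in Sham and 434, 663 and 592 CPM in DOCA-salt mice, with a change of 1.59 ± 0.20 (adjusted p = 0.00124). For both chains every DOCA-salt mouse lay above every Sham mouse. Nid1 changed by 1.68 ± 0.17 (adjusted p = 0.000403), from 72.4, 50.3 and 50.7 CPM to 154, 209 and 190 CPM. Lamb1 had the largest change, 1.96 ± 0.20 (adjusted p = 0.000404), from a low level of 7.43, 12.0 and 9.01 CPM to 32.4, 36.5 and 39.8 CPM. Its partner chain Lamc1 was at 114, 134 and 112 CPM against 209, 252 and 251 CPM, a change of 1.00 ± 0.13 (adjusted p = 0.00124). For Hspg2 the sums were 235, 350 and 190 CPM against 503, 479 and 569 CPM, and its change of 1.02 ± 0.19 (adjusted p = 0.00850) was not past the threshold without Sham mouse 1 (adjusted p = 0.0518).

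The groups were apart for each of these 6 genes in endothelial cells. Lamb2, at 179, 112 and 183 CPM against 117, 154 and 110 CPM, overlapped (log2 change -0.31 ± 0.20, adjusted p = 0.409). Col4a5 had a log2 change of -0.86 ± 0.24 that missed the threshold (adjusted p = 0.0518), but passed it, lower, by DESeq2, with its size factors, with library size alone, without the filter, with at most 20% mitochondrial UMIs, with likely doublets kept and at Leiden resolution 2 (adjusted p 0.000193 to 0.0468). In the fits before the last, 7 genes were called, beside 7.65% to 8.66% of all genes. The last called 8, with Col4a4, beside 9.92% of all genes. Col4a3 and Col4a4 changed by -0.18 ± 0.16 and -0.30 ± 0.15. Median UMIs per endothelial cell were 3362.5 to 3883.5 in Sham and 3763 to 5993 in DOCA-salt mice. Fibroblast markers in this class summed to 1.06 to 3.58 CPM in Sham and 17.0 to 59.2 CPM in DOCA-salt mice, with 6 of 7 apart and none at 0, and the 12 proximal tubule markers to 2173 to 4513 and 1019 to 2572 CPM, with 1 of 12 lower and apart and none at 0. Arterial cells gave 59.6% to 69.4% of the endothelial UMIs in Sham and 22.2% to 35.2% in DOCA-salt mice, and capillary cells 17.6% to 27.3% and 45.5% to 60.5%, so the sum over all endothelial cells also holds this shift between classes. The part of these markers and of the shift in the result was not tested. Some endothelial cells lay in none of the capillary, arterial and glomerular classes. In DOCA-salt mouse 3 these classes held 465, 117 and 8 of 1005 endothelial cells, and in Sham mouse 3 they held 189, 239 and 31 of 590.

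With every cell thinned to 1000 UMIs, a Col4a1 UMI was found in 28.9% ± 3.24 (SD, n = 3) of endothelial cells in Sham and 55.7% ± 5.54 in DOCA-salt mice. The exact permutation test, two-sided, gave p = 0.1, the smallest that 3 mice against 3 can give. In B cells, which should lack the gene, the shares were 0.757% and 0.821%, and in T or NK cells 0.942% and 1.20%. Thinning left out 185 Sham and 516 DOCA-salt endothelial cells with fewer UMIs. Without thinning the endothelial shares were 67.7%, 66.3% and 57.6% in Sham and 81.9%, 79.9% and 65.2% in DOCA-salt mice, means of 63.9% and 75.6%, and the groups overlapped (exact permutation test, p = 0.3).

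In capillary endothelium, named from Plvap, Igfbp3 and Npr3, these 6 genes were called higher as well and Col4a3 was called lower. The count was 7 of 10 genes, beside 7.9% of 10036 genes. Col4a1 was at 619, 578 and 499 CPM in Sham and 1226, 1603 and 1383 CPM in DOCA-salt mice, with a log2 change of 1.28 ± 0.15 (adjusted p = 0.000241). Lamb1 was at 12.7, 15.6 and 8.51 CPM against 51.5, 51.6 and 56.2 CPM, a change of 2.05 ± 0.24 (adjusted p = 0.000187). Lamc1 was at 125, 153 and 109 CPM against 282, 326 and 313 CPM, with 1.22 ± 0.15 (adjusted p = 0.000279). The β1 and γ1 chains of laminin thus rose together in capillaries, with no overlap between the groups. Col4a2 changed by 1.22 ± 0.19 (adjusted p = 0.00138) and Nid1 by 1.04 ± 0.16 (adjusted p = 0.00171).

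Hspg2 in capillaries was at 356, 562 and 288 CPM against 689, 593 and 731 CPM, a change of 0.71 ± 0.19 (adjusted p = 0.0349) that was lost on leaving out Sham mouse 1, Sham mouse 3, DOCA-salt mouse 1 or DOCA-salt mouse 3 (adjusted p up to 0.168). Col4a3 moved the other way, from 69.3, 73.9 and 51.1 CPM to 42.0, 25.7 and 34.1 CPM, and fell by 1.00 ± 0.21 on the log2 scale (adjusted p = 0.00952), and this call was lost without Sham mouse 1, with likely doublets kept and at Leiden resolution 2, where clusters are finer. Over its alternatives the change ranged from -1.16 to -0.43, with an adjusted p up to 0.160. The proximal tubule markers in capillary endothelium summed to 2412 to 6234 CPM in Sham and 768 to 1403 CPM in DOCA-salt mice, with 9 of 12 lower and apart and none at 0, and their part in the fall of Col4a3 was not tested. Fibroblast markers in the class were at 0 to 2.31 and 10.5 to 19.1 CPM, with 4 of 7 apart and Dpt at 0, and the 9 endothelial markers at 10284 to 12089 and 11592 to 11962 CPM.

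Different clusters held most of the capillary cells in the 2 groups. A cluster of 666 cells was 3.30% Sham and a cluster of 441 cells was 89.3% Sham, and in a cluster of 490 cells, 44.5% Sham, Sham mouse 2 gave 201. Median UMIs per capillary cell were 2800.5 to 3276.5 in Sham and 4769 to 7143 in DOCA-salt mice. The values above compare the whole class.

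In arterial endothelium, marked by Sox17, Gja4 and Gja5, 0 of the 9 genes that passed the filter were called by edgeR, and 4 had an unadjusted p below 0.05, beside 0.154% of 10359 genes called. Col4a1 there was at 308, 201 and 262 CPM against 315, 501 and 398 CPM, with a log2 change of 0.63 ± 0.19 (adjusted p = 0.211). Nid1 was at 32.7, 26.7 and 32.5 CPM against 46.0, 53.8 and 44.1 CPM, with groups apart and a change of 0.62 ± 0.18 (adjusted p = 0.189). Glomerular endothelium had 0 of 6 genes called, 0 with an unadjusted p below 0.05, beside 0.277% of 3609 genes. DOCA-salt mouse 3 gave 8 such cells and was left out of that fit.

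The change itself differed between the endothelial classes. In a model of both classes with each mouse as a block, 4 of 10 genes changed differently in capillary and arterial endothelium, beside 3.19% of 11081 genes. The capillary change exceeded the arterial one by 1.03 ± 0.15 on the log2 scale for Lamc1 (adjusted p = 2.36e-05), by 0.66 ± 0.13 for Col4a1 (adjusted p = 0.00130) and by 0.56 ± 0.13 for Col4a2 (adjusted p = 0.00617), and was below it for Col4a3 (difference -1.28 ± 0.25, adjusted p = 0.00118). The summed proximal tubule markers in capillaries were lower in DOCA-salt mice, and their part in the difference of Col4a3 was not tested. This comparison was added after the sums of both classes had been seen, and it was not repeated with mice left out.

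**Figure D4:**
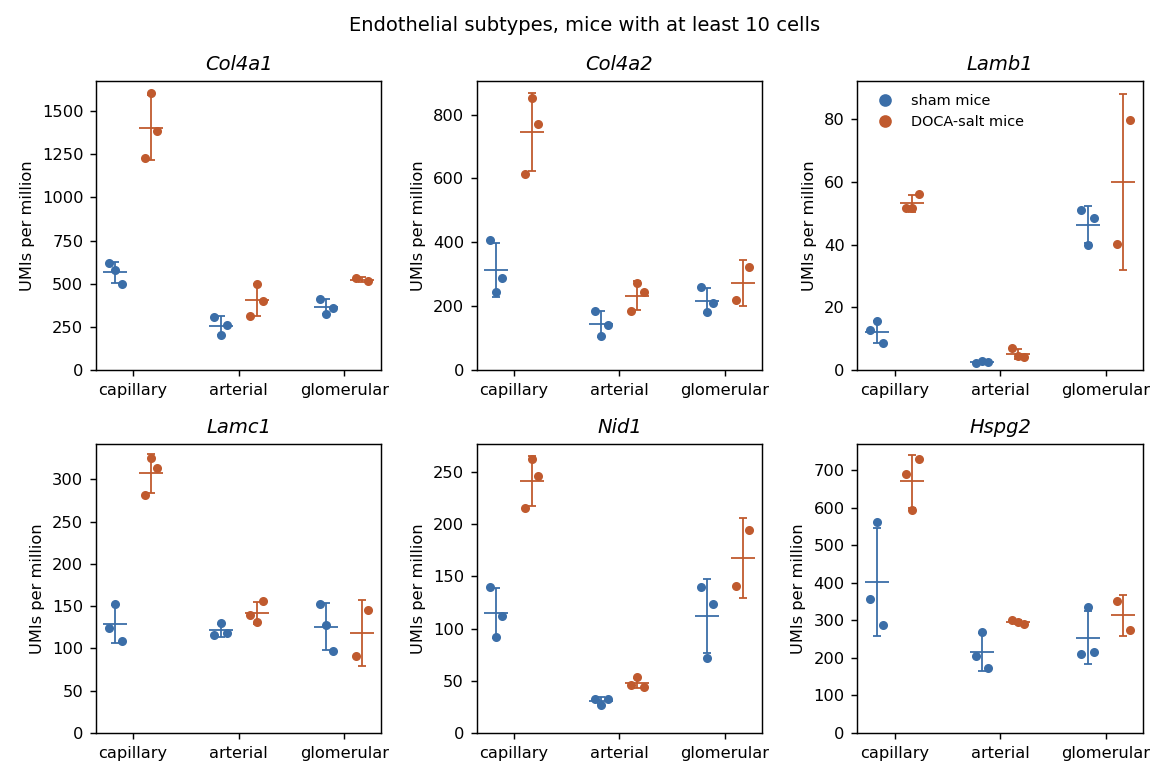
Level of 6 genes in capillary, arterial and glomerular endothelium (CPM, linear axis from 0), with a point for each mouse with at least 10 cells and a dash with bars at the mean ± SD of the Sham (blue) and DOCA-salt (orange) mice. In capillaries the groups are apart for all 6 genes, as for Col4a1 at 499 to 619 and 1226 to 1603 CPM, and in arteries 0 genes are called.

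In the proximal tubule, Col4a1, Col4a2, Col4a3 and Hspg2 were called, all higher in DOCA-salt mice, beside 6.71% of 16127 genes. Nid1 made the count 5 of 10, but it passed the filter on low counts only through the DOCA-salt mice. Col4a1 was at 52.0, 64.1 and 48.7 CPM in Sham and 107, 103 and 104 CPM in DOCA-salt mice, a log2 change of 0.87 ± 0.12 (adjusted p = 0.00565). Col4a2 was at 35.1, 38.3 and 35.6 CPM against 62.9, 65.1 and 64.4 CPM, a change of 0.75 ± 0.09 (adjusted p = 0.00331). The 3 DOCA-salt mice lay close together and above all Sham mice for both chains. Col4a3 also rose here, from 168, 160 and 151 CPM to 207, 263 and 295 CPM (0.61 ± 0.13, adjusted p = 0.0299). That call was lost without Sham mouse 1, Sham mouse 3, DOCA-salt mouse 2 or DOCA-salt mouse 3, with an adjusted p up to 0.138 over its alternatives. Its trimer partners Col4a4 (0.31 ± 0.13, adjusted p = 0.168) and Col4a5 (0.22 ± 0.12, adjusted p = 0.314) had groups apart and did not pass.

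Nid1 and Hspg2 were called in proximal tubule at very low levels, and Nid1 passed the filter there only through the DOCA-salt mice. Nid1 was at 0.234, 0.225 and 0.155 CPM against 1.05, 1.44 and 1.31 CPM, and Hspg2 at 1.39, 1.69 and 1.16 CPM against 3.81, 3.31 and 4.40 CPM. After thinning to 1000 UMIs, a Nid1 UMI was found in 0.0247% and 0.126% of proximal tubule cells, against 0.288% and 1.17% of B cells and 0% and 0.193% of T or NK cells. Hspg2 was found in 0.147% and 0.401% of proximal tubule cells and 0.181% and 0.463% of T or NK cells. Median UMIs of the cells kept were 7304 to 11173 in proximal tubule and 2972 to 4569 in T or NK cells. Hspg2 was found in 0% of B cells in all 6 mice. Before thinning, 0 of 149 Sham and 63 DOCA-salt B cells allow shares of up to 2.01% and 4.76%, limits that pool the mice and cover counting error only, and the unthinned shares in proximal tubule, whose cells hold more UMIs, were 1.21% and 3.37%. The proximal tubule shares lay above some of these lymphocyte shares and below others, so levels this low were not set apart from background at this depth. Fibroblast markers in the class summed to 0.406 to 2.34 CPM in Sham and 12.0 to 18.9 CPM in DOCA-salt mice, with 6 of 7 apart and none at 0.

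A Col4a1 UMI was found in 4.56% ± 0.463 of proximal tubule cells of Sham and 8.21% ± 0.0995 of DOCA-salt mice at 1000 UMIs, above the share in lymphocytes, and a Col4a3 UMI in 13.7% ± 0.191 and 18.8% ± 3.06. The groups were apart for both, and both exact permutation tests gave p = 0.1, the smallest possible. Thinning left out 3538 Sham and 2380 DOCA-salt cells. Without thinning the shares were 23.7% and 38.9% for Col4a1 and 44.3% and 53.4% for Col4a3, and the groups then overlapped for Col4a3 (exact permutation test, p = 0.2).

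Tested directly, the change differed between endothelial cells and proximal tubule for 8 of 10 genes, Nid1 included, beside 8.03% of 17046 genes. It was larger in endothelium for Lamb1 (difference of log2 changes 1.56 ± 0.20, adjusted p = 0.000243), Lamc1 (0.79 ± 0.11, adjusted p = 0.000437), Col4a2 (0.82 ± 0.20, adjusted p = 0.0184) and Col4a1 (0.74 ± 0.17, adjusted p = 0.0152). It was smaller in endothelium for Col4a5 (-1.14 ± 0.26, adjusted p = 0.0145), Col4a3 (-0.80 ± 0.18, adjusted p = 0.0147) and Col4a4 (-0.63 ± 0.15, adjusted p = 0.0208). Free RNA was not corrected for. The part in these differences of the proximal tubule markers found in endothelial cells was not tested. Nid1 also passed (-0.88 ± 0.24, adjusted p = 0.0338), but its value rests on at most 1.44 CPM in tubules. It passed the proximal tubule filter only through the DOCA-salt mice, at a level not set apart from background. Without DOCA-salt mouse 2 the count was 2, Lamb1 and Lamc1, beside 672 of 17335 genes. Without Sham mouse 1 it was 5, beside 912 of 17270 genes. The call of Nid1 was kept without Sham mouse 2 and lost on leaving out any other mouse. The endothelial sum holds the shift from arterial to capillary cells. In capillary endothelium alone the log2 changes were 2.05 for Lamb1, 1.22 for Lamc1, 1.22 for Col4a2 and 1.28 for Col4a1. In the endothelial sum they were 1.96, 1.00, 1.59 and 1.64. The part of the shift in these differences was not tested.

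In principal cells of the collecting duct, which carry the mineralocorticoid-responsive sodium channel, 2 genes rose and 2 fell among the 9 genes other than Nid1, beside 7.03% of 10682 genes. Nid1 was called higher too, but it passed the filter on low counts only through the DOCA-salt mice. Col4a1 was at 167, 177 and 222 CPM in Sham and 93.6, 109 and 102 CPM in DOCA-salt mice, a log2 change of -0.84 ± 0.15 (adjusted p = 0.00698). Col4a2 was at 71.2, 47.6 and 78.2 CPM against 32.5, 30.9 and 35.5 CPM, a change of -0.95 ± 0.20 (adjusted p = 0.0151). Every DOCA-salt mouse lay below every Sham mouse for both chains, and the call of Col4a2 was lost without Sham mouse 1, Sham mouse 3, DOCA-salt mouse 1 or DOCA-salt mouse 2 (adjusted p up to 0.0655). Col4a3 was higher, at 125, 112 and 113 CPM against 175, 205 and 141 CPM (0.62 ± 0.15, adjusted p = 0.0295), and so was Lamb1, at 83.8, 98.0 and 64.9 CPM against 119, 112 and 142 CPM (0.64 ± 0.16, adjusted p = 0.0363). The last 2 calls were each lost with likely doublets kept and without Sham mouse 1, Sham mouse 3, DOCA-salt mouse 1 or DOCA-salt mouse 2, and that of Lamb1 also without DOCA-salt mouse 3 and with scaling by library size alone.

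Nid1 UMIs in principal cells were 2 over all Sham and 71 over all DOCA-salt mice, a ratio per UMI of 38.8 with an exact 95% counting interval of 10.3 to 326. That interval covers counting error only. Fibroblast markers in this class summed to 0.453 to 1.91 CPM and 6.40 to 32.8 CPM, with 3 of 7 apart and none at 0, and their part in the result was not tested. Endothelial markers were at 18.6 to 51.8 and 26.1 to 41.7 CPM, with 0 of 9 apart.

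In the neighbouring distal convoluted and connecting tubule, 3 of the 9 genes that passed the filter rose and 1 fell, beside 15.5% of 11360 genes. Col4a1 was at 90.1, 106 and 87.0 CPM against 146, 154 and 133 CPM (0.49 ± 0.12, adjusted p = 0.0207), a call lost without Sham mouse 1, Sham mouse 3, DOCA-salt mouse 1 or DOCA-salt mouse 2 and with at most 20% mitochondrial UMIs (adjusted p up to 0.173). Col4a2 was at 37.5, 33.9 and 37.8 CPM against 57.4, 73.2 and 70.2 CPM (0.74 ± 0.15, adjusted p = 0.00616). Lamb1 was at 88.2, 88.5 and 95.9 CPM against 154, 149 and 181 CPM (0.69 ± 0.12, adjusted p = 0.00267). The groups were apart for these genes, with DOCA-salt mice above. Col4a4 lay below, at 625, 669 and 552 CPM against 464, 463 and 481 CPM (-0.52 ± 0.12, adjusted p = 0.0142), and lost its call without Sham mouse 1, DOCA-salt mouse 1 or DOCA-salt mouse 3 and with scaling by library size alone, which moved the median of all genes here to 0.11 on the log2 scale.

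Between these neighbouring segments, the change differed for 5 of 10 genes, beside 10.9% of 11751 genes. The change in principal cells was below that in distal convoluted and connecting tubule for Col4a2 (difference -1.70 ± 0.18, adjusted p = 1.17e-06) and Col4a1 (-1.33 ± 0.15, adjusted p = 2.21e-06). It was above for Lamb2 (0.86 ± 0.25, adjusted p = 0.0269), Col4a3 (0.83 ± 0.15, adjusted p = 0.000686) and Col4a4 (0.67 ± 0.12, adjusted p = 0.000393). Lamb2 was called in neither class alone. This comparison was also added after the sums had been seen, and it was not repeated with mice left out.

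Intercalated cells, the acid-base cells of the same ducts, had 1 of 9 genes called, beside 6.62% of 11760 genes. Lamb1 was at 32.6, 25.3 and 31.4 CPM in Sham and 39.7, 55.2 and 68.2 CPM in DOCA-salt mice (0.88 ± 0.19, adjusted p = 0.0194), a call lost without Sham mouse 3, without DOCA-salt mouse 3, with at most 20% mitochondrial UMIs and at Leiden resolution 2. Lamb1 was thus called higher in endothelial cells, principal cells, distal convoluted and connecting tubule and intercalated cells, and in thick ascending limb, where its level was already 191 ± 10.5 CPM in Sham mice, it changed by 0.11 ± 0.11 (adjusted p = 0.785).

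In thin limb 0 of 10 genes were called by edgeR, beside 0.487% of 11696 genes, and 4 had an unadjusted p below 0.05. DESeq2 called 2 of them, beside 1.27% of the same genes. Col4a3 was at 331, 443 and 343 CPM against 583, 607 and 565 CPM (0.68 ± 0.14, adjusted p = 0.0634), and Col4a4 at 504, 524 and 527 CPM against 718, 824 and 735 CPM (0.57 ± 0.13, adjusted p = 0.0875). The groups were apart for both, and also for Col4a5 at 201, 201 and 207 CPM against 261, 239 and 254 CPM (0.32 ± 0.11, adjusted p = 0.313). All 3 Alport chains thus had groups apart without passing the adjusted threshold of edgeR. The share of all thin limb genes with groups apart was not counted. In thick ascending limb 0 of 9 genes were called by edgeR, and 4 had an unadjusted p below 0.05, beside 1.34% of 12198 genes, and DESeq2 called 0.

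**Figure D5:**
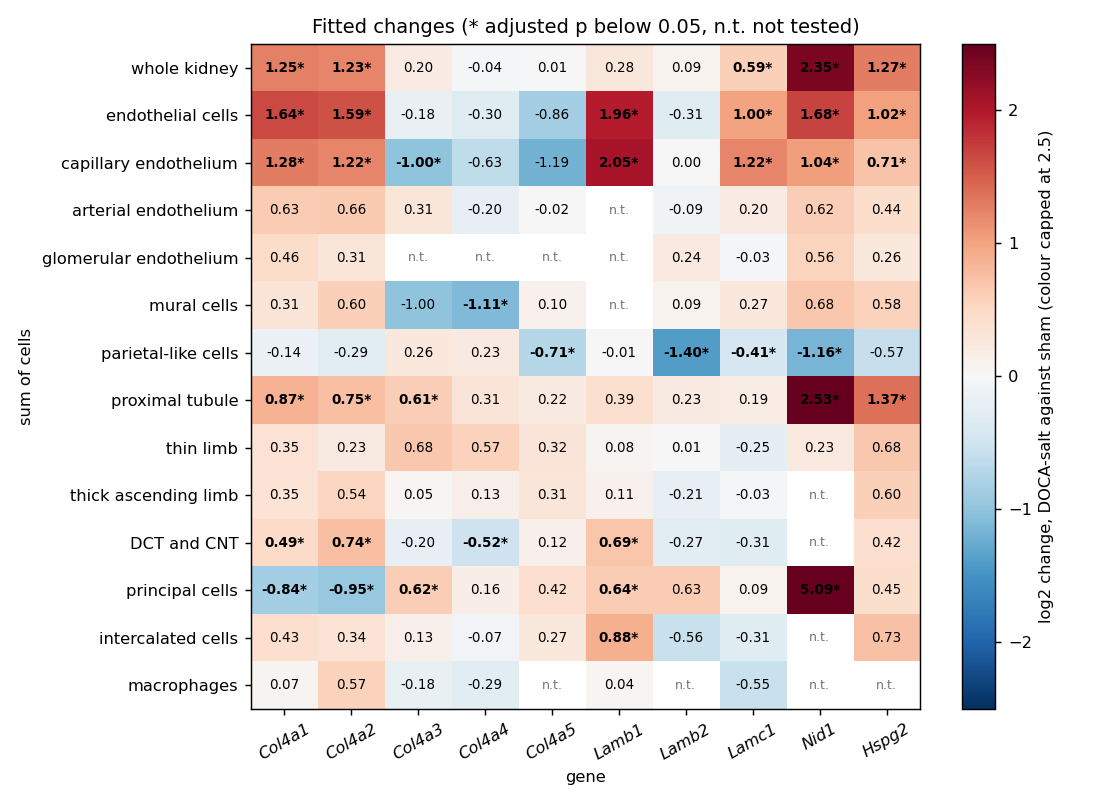
Fitted log2 change, DOCA-salt against Sham, of each gene (columns) in each sum of cells (lines), as number and colour, with a star at an adjusted p below 0.05 and n.t. where the gene did not pass the filter on low counts; the value of Nid1 in principal cells rests on 2 Sham UMIs. Col4a1 and Col4a2 are above 0 in endothelium, proximal tubule and distal convoluted and connecting tubule and below 0 in principal cells.

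Parietal-like cells had 4 genes lower and 0 higher of 10, beside 25.2% of 12155 genes, the largest share of any class. Nid1 was at 128, 89.3 and 73.2 CPM against 35.5, 44.4 and 40.1 CPM (-1.16 ± 0.19, adjusted p = 0.000761), Col4a5 at 247, 257 and 231 CPM against 155, 136 and 131 CPM (-0.71 ± 0.12, adjusted p = 0.00111), and Lamb2 at 47.6, 34.6 and 50.9 CPM against 12.1, 22.4 and 11.8 CPM (-1.40 ± 0.27, adjusted p = 0.00217). Lamc1 changed by -0.41 ± 0.14 (adjusted p = 0.0430), a call lost when any 1 of the 6 mice was left out. The class had 86 to 126 cells in Sham and 219 to 282 in DOCA-salt mice. The 5 injury markers in it, with Havcr1 among them, summed to 335 to 416 and 602 to 692 CPM, the 5 parietal markers to 1783 to 2408 and 962 to 992 CPM, the 12 proximal tubule markers to 2749 to 4553 and 7385 to 9158 CPM, and the 5 podocyte markers to 202 to 433 and 30.3 to 53.0 CPM.

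At a finer clustering the class split, and all 4 calls were lost. Injured tubule cells, which then stood alone, numbered 17, 30 and 54 in Sham and 306, 374 and 397 in DOCA-salt mice, and the remaining parietal-like cells 73, 92 and 83 against 54, 57 and 58. In the latter 0 of the 10 genes were called, beside 2.92% of 9839 genes, with log2 changes of 0.23 for Col4a5, 0.34 for Lamc1, -0.17 for Nid1 and -0.19 for Lamb2. In injured tubule cells 2 of 10 genes rose, beside 9.38% of 11616 genes. They were Col4a3 (1.67 ± 0.23, adjusted p = 0.000168) and Col4a4 (0.86 ± 0.22, adjusted p = 0.0216), while Col4a1 had a change of -0.30 ± 0.16 (adjusted p = 0.294). This fit was added after the data were seen.

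Podocytes, the glomerular cells that make the Alport trimer, were counted as barcodes with a UMI of at least 3 of their 5 markers, 32 in Sham and 34 in DOCA-salt mice, of which 39 lay in the parietal-like class. Col4a3 in them was at 700 to 946 CPM in Sham and 144 to 287 CPM in DOCA-salt mice, and Col4a4 at 427 to 1039 and 262 to 378 CPM. Col4a1 was at 31.0 to 223 and 553 to 1023 CPM. With 6 to 18 barcodes per mouse these are values without a test, and in the DOCA-salt mice they do not describe a separate podocyte population.

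Mural cells, smooth muscle and pericytes together, had 1 of 9 genes called, beside 2.24% of 7461 genes. Col4a4 was at 51.9, 78.6 and 85.8 CPM against 33.2, 26.4 and 45.6 CPM (-1.11 ± 0.27, adjusted p = 0.0391), a call lost without Sham mouse 2, Sham mouse 3, DOCA-salt mouse 1 or DOCA-salt mouse 2, by DESeq2, with at most 20% mitochondrial UMIs and with likely doublets kept (adjusted p up to 0.789). Proximal tubule markers in mural cells summed to 3808 to 8686 CPM in Sham and 1196 to 1933 CPM in DOCA-salt mice, with 7 of 12 lower and apart and none at 0, and their part in the result was not tested. Lamb2, whose level was highest in this class, was at 363, 208 and 355 CPM against 294, 431 and 306 CPM, with overlapping groups.

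Fibroblasts were not tested in the sums above, since only Sham mouse 1 gave at least 10 of them (24, 6 and 9 cells, against 217, 296 and 306). Col4a1 in them was at 257, 705 and 412 CPM in Sham and 858, 1109 and 1135 CPM in DOCA-salt mice, and Nid1 at 205, 643 and 313 CPM against 326, 414 and 347 CPM. The Sham values rest on very few cells and overlap the DOCA-salt range for Nid1. With likely doublets kept, Sham mice 1 and 3 had 27 and 10 fibroblasts and a fit could be had, in which 5 of 10 genes were called, beside 5.56% of 12671 genes. Col4a1 (log2 change 1.20 ± 0.27, adjusted p = 0.00720), Col4a2 (1.30 ± 0.30, adjusted p = 0.00789) and Lamb1 (1.42 ± 0.40, adjusted p = 0.0307) were called higher. Lamb2 (-1.40 ± 0.28, adjusted p = 0.00191) and Col4a5 (-1.54 ± 0.39, adjusted p = 0.0152) were called lower, and Nid1 was at 0.35 ± 0.26 (adjusted p = 0.516), where the median over all genes was 0.16.

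Macrophages had 0 of 6 genes called by edgeR, 1 with an unadjusted p below 0.05, beside 5.84% of 9130 genes, and Col4a1 there was at 6.76 to 19.2 CPM in Sham and 11.3 to 20.9 CPM in DOCA-salt mice. Among T or NK cells Lamc1 was at 45.5, 28.2 and 46.8 CPM against 55.8, 92.9 and 163 CPM, apart between the groups. The sums of this class were not fitted. The share of T or NK cells with a Lamc1 UMI at 1000 UMIs was 3.46% ± 0.364 and 8.87% ± 3.39 (exact permutation test, two-sided, p = 0.1, the smallest possible).

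Among 23 further chains and linkers, 7 rose and 1 fell in whole kidneys, beside the 17.2% of all genes called there, and the median log2 change was 0.28. Sparc, a collagen IV binding protein, went from 67.4 to 107 CPM in Sham to 314 to 554 CPM in DOCA-salt mice (log2 change 2.19 ± 0.24, adjusted p = 0.00116), and Col15a1, a collagen beneath the basement membrane, from 2.30 to 3.09 CPM to 25.5 to 49.5 CPM (3.79 ± 0.25, adjusted p = 0.000215). Lama2, Lama4, Frem1, Smoc2 and Hmcn1 rose as well, and Fras1, which anchors epithelia to the sheet, changed by -0.37 ± 0.09 (adjusted p = 0.0272). In endothelial cells 4 of the 16 that passed the filter rose and 1 fell, beside 8.22% of all genes, whereas the median log2 change of the 16 was -0.22 and that of all genes was close to 0. Lama4, the α chain of endothelial laminin, was at 42.3 to 71.5 CPM in Sham and 116 to 184 CPM in DOCA-salt mice (1.39 ± 0.21, adjusted p = 0.00326), and Nid2, the other nidogen, at 12.9 to 22.7 and 56.2 to 63.7 CPM (1.87 ± 0.18, adjusted p = 0.000403). Col15a1 and Sparc rose there too, by 2.01 ± 0.20 and 1.15 ± 0.18, whereas Npnt changed by -0.62 ± 0.14 (adjusted p = 0.0212).

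Of 14 enzymes that fold and crosslink collagen, 7 rose in whole kidneys and 4 of the 13 that passed the filter in endothelial cells, with none lower in either, beside the same 17.2% and 8.22% of all genes, and with median log2 changes of 0.53 and 0.32. Serpinh1, the collagen chaperone HSP47, was at 133 to 235 CPM in endothelial cells of Sham and 398 to 540 CPM of DOCA-salt mice (1.46 ± 0.20, adjusted p = 0.00186), and Plod1, a lysyl hydroxylase, at 34.0 to 43.2 and 84.5 to 101 CPM (1.27 ± 0.13, adjusted p = 0.000475). Pxdn, the peroxidase that crosslinks collagen IV, rose in whole kidneys by 1.17 ± 0.17 (adjusted p = 0.00305), and Loxl1 and Loxl2 by 3.05 ± 0.21 and 3.14 ± 0.34 from below 3 CPM. Of 14 receptors 3 rose in whole kidneys (Itga1, Itgb5 and Ddr2), a share near the 17.2% of all genes. Their median log2 change was 0.21. In proximal tubule Itga6 and Itga1 rose, beside 6.71% of all genes, and the median log2 change of the 14 was 0.33. Ddr2 made the count there 3, but it passed the filter only through the DOCA-salt mice. It was at 0.0516 to 0.10 CPM in Sham and 0.330 to 0.467 CPM in DOCA-salt proximal tubule. In endothelial cells 1 of the 12 that passed the filter rose and 1 fell, beside 8.22% of all genes, with a median log2 change of 0.015. They were Itga6 (0.65 ± 0.14, adjusted p = 0.0150) and Itgb4 (-0.84 ± 0.17, adjusted p = 0.0118). In the proximal tubule Itga6, a laminin receptor chain, was at 55.0 to 101 CPM in Sham and 148 to 213 CPM in DOCA-salt mice (1.17 ± 0.24, adjusted p = 0.0247). Of the chains called there, Npnt was at 44.4 to 75.9 and 105 to 116 CPM (0.86 ± 0.18, adjusted p = 0.0264) and Col18a1 at 18.4 to 24.7 and 35.4 to 43.7 CPM (0.82 ± 0.13, adjusted p = 0.0102). Col15a1, Lama2 and Smoc2 were called there too, but stayed below 3 CPM and passed the filter only through the DOCA-salt mice.

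Levels across cell types can also be set against those of other genes. Over 38 means (20 classes of cells, both groups where present), which share libraries, the 5 genes most like Col4a1 among 15101 were Serpinh1 (Pearson r = 0.949), Adamts1 (0.934), Col4a2 (0.929), Wwtr1 (0.923) and Rai14 (0.916). For Col4a3 they were Mccc2 (0.945), Kifc3 (0.937), Lgr4 (0.935), Bcl7a (0.916) and Ptdss2 (0.913), and its head-to-head partner Col4a4 came at rank 80 (0.843). Lamb2 was most like Mprip (0.935), Pls3 (0.928), Crip2 (0.926), Nynrin (0.907) and Epn2 (0.902), and Nid1 most like Bmp1 (0.929), Mxra8 (0.924), Plat (0.908), Sparc (0.905) and Fkbp10 (0.892). Col4a1 and Col4a2 each came at rank 3 for the other, and Col4a3 came at rank 218 for Col4a4. These correlations on log2 of CPM plus 1 are descriptions of these means.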

How the data were processed

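The authors deposited raw UMI counts per gene and barcode for 6 kidney libraries, made with Cell Ranger on GRCm39 and not normalized. The submitters' notes name version 9.0.0 and the file headers 8.0.1, and the annotation release is not given in the sources used here. Positions and sequences were read from GRCm39 with the GENCODE annotation. The members and the gene lists were chosen with earlier results of these data known.

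Barcodes needed 170 genes, 500 UMIs, no more than 50% mitochondrial and no more than 5% hemoglobin UMIs. The highest Scrublet scores (scanpy 1.11.5) were removed per mouse at 0.8% per 1000 barcodes. The 2000 most variable genes, without the members and the other basement membrane genes, gave 30 principal components, 15 neighbours and Leiden clusters at resolution 1 (igraph 0.11.9). Of 37 clusters 2 stayed unnamed and the others were named from marker lists. Immune and endothelial clusters were clustered again. Free RNA was not corrected for.

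Counts were summed per mouse and class, for mice with at least 10 cells, and tested with edgeR 4.0.16 in R 4.3.3 (filterByExpr, TMM, quasi-likelihood F test, Benjamini-Hochberg over all genes of the sum, threshold 0.05) where each group had 2 mice. The SE is the log2 change over the square root of F. Differences between classes came from 1 model of both classes with the mouse as a block. Shares of cells used the chance of a UMI after thinning to 1000 UMIs, compared by exact permutation tests over mice (scipy 1.17.1). Of the 51 further genes, those named were past the threshold in whole kidney, proximal tubule or endothelial sums with the groups apart. The edgeR step was tested on simulated counts with 200 changed genes. The simulation set the same spread for all genes, so it does not show how the step performs at the spread of these data. Alternatives were size factors of DESeq2 1.42.0, DESeq2 itself, library size alone, no filter on low counts, a replicate block, leaving out each mouse, a limit of 20% on mitochondrial UMIs, keeping likely doublets, Leiden resolution 2, whole-kidney sums without fibroblasts or mural cells, and thinning to 2000 UMIs or none. The sum without the cluster of 1 mouse, the injured tubule fit and the last 2 class comparisons were added after the data were seen.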

Additional observations from a re-analysis of the deposited data

Results flagged for a closer look

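The DOCA-salt change differed between cell classes in 17 tests of the difference itself. Each was an interaction term in edgeR with the mouse as a block. All 10 genes were tested in each comparison, and the 17 are those that passed. Beside them, 8.03% of all genes differed between endothelial cells and proximal tubule. The share was 3.19% between capillary and arterial endothelium and 10.9% between principal and distal cells. The comparisons of capillary with arterial and of principal with distal cells were added after the sums had been seen. Neither was repeated with mice left out. Between endothelial cells and proximal tubule, the difference of the log2 changes (endothelium minus tubule) was 1.56 for Lamb1, 0.82 for Col4a2, 0.79 for Lamc1 and 0.74 for Col4a1. It was -0.63 for Col4a4, -0.80 for Col4a3, -0.88 for Nid1 and -1.14 for Col4a5. Nid1 passed the proximal tubule filter only through the DOCA-salt mice, at a level there not set apart from lymphocytes. Lamb1 and Lamc1 passed with any 1 mouse left out, and the other 6 genes lost the call without DOCA-salt mouse 2. Nid1 also lost it without Sham mouse 1, Sham mouse 3, DOCA-salt mouse 1 or DOCA-salt mouse 3. Col4a4 lost it without Sham mouse 1 or Sham mouse 3 as well, Col4a5 without Sham mouse 1 and Col4a2 without Sham mouse 2. Between capillary and arterial endothelium (capillary minus arterial) the difference was 1.03 for Lamc1, 0.66 for Col4a1, 0.56 for Col4a2 and -1.28 for Col4a3. Between principal cells and the distal convoluted and connecting tubule (principal minus distal) it was 0.86 for Lamb2, 0.83 for Col4a3, 0.67 for Col4a4, -1.33 for Col4a1 and -1.70 for Col4a2. Endothelium was summed as a whole against proximal tubule, so the shift from arterial to capillary cells remains in those values. Free RNA was not corrected for, and proximal tubule markers were found in the endothelial classes. What lies behind these differences was not tested, and groups of 3 mice were not searched for single stray samples.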

How the results depend on the processing

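Of 542 changes of called genes recomputed under the alternatives, 468 kept their direction and their side of the threshold, 72 kept the direction and lost the call, and 2 turned. The 2 were Col4a5 (0.23) and Lamc1 (0.34) in parietal-like cells at Leiden resolution 2, where the count of genes called fell from 4 to 0 (all genes from 25.2% to 2.92%). There 77.1% of the DOCA-salt cells of the class fell to injured tubule, and the cause was not tested. With size factors of DESeq2 in place of TMM all 38 called changes kept their call, and with library size alone 36 did.

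Counts of genes called in proximal tubule and principal cells, 5 each in the main fits, hold Nid1 here and below. It passed the filter there only through the DOCA-salt mice. Counts of genes called moved as follows, with some smaller moves given last. Without the filter they were 3 in thin limb (2.21% of all genes called), 2 in thick ascending limb (2.84%), 4 in intercalated cells (6.75%), 2 in arterial endothelium (1.33%) and 3 in mural cells (2.04%). With at most 20% mitochondrial UMIs they were 1 in thin limb (0.848%), 1 in thick ascending limb (1.64%) and 0 in mural cells (1.04%). DESeq2 called 2 in thin limb (1.27%) and 0 in mural cells (1.7%). Without doublet removal they were 3 in principal cells (6.44%) and 0 in mural cells (1.24%), and at resolution 2 intercalated cells had 0 (3.78%). Endothelial cells had 7 under 6 alternatives with all mice (7.65% to 8.66%) and 8 at resolution 2 (9.92%). Col4a5, and at resolution 2 also Col4a4, was called lower in these fits. Whole kidneys had 6 by DESeq2 (22%) and with library size alone (17.9%). Distal convoluted and connecting tubule had 6 without the filter (11.8%) and with at most 20% mitochondrial UMIs (19.7%). It had 3 with library size alone (16.5%). Proximal tubule had 6 with at most 20% mitochondrial UMIs (10.4%). Parietal-like cells had 5 with library size alone (26%) and 3 by DESeq2 (22.1%). The causes were not tested.

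With the replicate block the counts were 3 in proximal tubule (1.51%), 2 in distal convoluted and connecting tubule (9.39%), 3 in principal cells (3.45%), 0 in intercalated cells (2.19%) and 0 in mural cells (1.21%). The sources used here do not say that the replicate numbers pair the mice. Same-numbered mice correlated at -0.0187, -0.413 and -0.0482 in their deviations from the group means. With 3 mice in each group these values cannot settle whether the mice were paired.

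Leaving out 1 mouse at a time gave 4 to 6 genes called in whole kidneys (8.67% to 23.2% of all genes), 4 to 6 in proximal tubule (1.6% to 16.3%), 0 to 2 in thin limb (0.0334% to 2.07%), 0 to 2 in thick ascending limb (0.327% to 5.91%), 2 to 5 in distal convoluted and connecting tubule (9.97% to 20.2%), 2 to 7 in principal cells (2.86% to 10.6%), 0 to 3 in intercalated cells (2.26% to 11.3%), 3 to 4 in parietal-like cells (17.1% to 24.2%), 5 to 8 in endothelial cells (3.55% to 14.4%), 5 to 8 in capillary endothelium (2.69% to 11.8%), 0 to 0 in glomerular (0% to 0.469%, on leaving out a Sham mouse, since DOCA-salt mouse 3 was already out and leaving out another DOCA-salt mouse left 1) and 0 to 1 in arterial endothelium (0.0282% to 2.4%), 0 to 2 in mural cells (0.773% to 3.93%) and 0 to 0 in macrophages (2.76% to 5.79%), and 2 to 7 for the difference between endothelial cells and proximal tubule (3.88% to 7.17%). The share of proximal tubule cells with a Col4a1 UMI differed between the groups by 6.50 percentage points at 2000 UMIs and 15.2 without thinning, that with a Col4a3 UMI by 8.19 and 9.04, and that of endothelial cells with a Col4a1 UMI by 11.8 without thinning. Depth limits the low levels of Nid1 and Hspg2 in proximal tubule, which were not set apart from the shares in lymphocytes. A fit of fibroblasts could be had without doublet removal.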
